A study of Mus musculus with 187 samples.

Results

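The genes described here encode the nuclear subunits of the oxidative phosphorylation machinery of mitochondria, in single mouse embryos that had received an injection of RNA as zygotes. They were chosen by symbol: the families Nduf (letters a, b, c, s and v), Sdha to Sdhd, Uqcr, Cyc1, Cycs, Cox4 to Cox8 and Atp5. The rule found 94 genes. Of these, 74 were listed among the 8735 genes of the sperm RNA table, the same 74 among the 8805 genes of the tRF table, and all 94 among the 23534 features of the 4-cell table. By role, 36 belong to complex I, 4 to complex II, 9 to complex III, 20 to complex IV and 15 to complex V. Cycs is the mobile carrier cytochrome c. The remaining 9 (Ndufaf1 to Ndufaf7, Atp5s and Atp5sl) share the family names but are assembly factors or related proteins, not subunits. The 2-cell tables leave out the genes of low count, so the 20 members listed only at the 4-cell stage were not analysed at the 2-cell stage. They include 7 of the 8 complex IV paralogues known for expression in particular tissues.

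All embryos were FVB and were made by in vitro fertilisation, with both parents on a control diet. Zygotes were injected about 2 h after fertilisation, and the 2-cell embryos were collected at 32 h. In 1 table of 2-cell embryos, 46 were given sperm small RNA of low protein males and 42 sperm small RNA of control males. In a separate table, 26 2-cell embryos had received tRF-GlyGCC with modified bases, 6 tRF-GluCTC and 11 H3.3-GFP mRNA. The tRFs are pieces cut from tRNAs, here from the glycine and the glutamate tRNA. At the 4-cell stage, 27 embryos had received an antisense oligonucleotide to tRF-GlyGCC and 28 H3.3-GFP mRNA, and 1 further embryo labelled antisense was not analysed here. The stage of these embryos comes from their titles and sample source, while the growth protocol given with them describes collection at the late 2-cell stage, so each value set between the stages rests on the titles and source. Embryos were picked by GFP signal, which needs GFP mRNA in every group, although the label of injected RNA names it for the GFP groups only. The authors' deposited table of the 4-cell comparison names the injected group tRFGGunmod, which goes against the label, so the identity of the RNA injected there is uncertain. The labels tie no embryo to a litter, male or RNA preparation, so each p-value reflects only how much single embryos varied, which may be technical. The end code of each title was used as a batch, with 6 batches in the sperm RNA table (A to F), 2 in the tRF table (G and H) and 8 in the 4-cell table (J to R, without O).

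Median totals per group were between 1.81 and 2.29 M counts (M for 10 to the power 6) in the 2-cell tables, over the genes listed there, with single embryos between 0.644 and 4.56 M. Levels there are counts per M counts over the listed genes (CPM). The 4-cell table gives FPKM, so the depth of those embryos is unknown. All 10 listed oocyte and early embryo markers had a median above 0 in every group. Of 10 cumulus cell markers, 2 (Amhr2 and Serpine2) were listed at the 2-cell stage, and 7 were at a median of 0 in both 4-cell groups. Of 10 sperm transcript markers, 2 (Odf2 and Ldhc) were listed at the 2-cell stage, and 8 were at a median of 0 in both 4-cell groups.

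Oxidative phosphorylation couples the oxidation of nutrients to the making of ATP. Complexes I and II pass electrons from NADH and succinate to ubiquinone, complex III passes them to cytochrome c, and complex IV passes them to oxygen, while complexes I, III and IV pump protons across the inner mitochondrial membrane and complex V uses the gradient to make ATP. Most subunits are encoded in the nucleus, some core subunits of complexes I, III, IV and V in mitochondrial DNA, and the oocyte supplies the mitochondria of the early mouse embryo, which relies on pyruvate oxidation before it takes up glucose in quantity.

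The stretches before the transcription start of 3 members are shown because the results turn on their levels: Cox6b1 and Cox6b2 encode alternative forms of one complex IV subunit and were ordered oppositely at the 2 stages, and the promoter of Cycs is a textbook example of a site for NRF1, a regulator of nuclear respiratory genes. Each holds the 250 bases before the start, from RefSeq on GRCm38.p6, 5′ to 3′ on the minus strand, with the capitals marking a match to a motif. The gene Cox6b1 lies at chr7:30616971-30626114, Cox6b2 at chr7:4751792-4753094 and Cycs at chr6:50562563-50566569.
Cox6b1, chr7:30626115-30626364, minus strand: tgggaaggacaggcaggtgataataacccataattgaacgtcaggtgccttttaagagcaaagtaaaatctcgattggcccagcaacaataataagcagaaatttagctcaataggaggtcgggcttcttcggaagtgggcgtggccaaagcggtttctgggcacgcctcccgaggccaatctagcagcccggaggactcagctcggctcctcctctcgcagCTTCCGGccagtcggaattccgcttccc
Cox6b2, chr7:4753095-4753344, minus strand: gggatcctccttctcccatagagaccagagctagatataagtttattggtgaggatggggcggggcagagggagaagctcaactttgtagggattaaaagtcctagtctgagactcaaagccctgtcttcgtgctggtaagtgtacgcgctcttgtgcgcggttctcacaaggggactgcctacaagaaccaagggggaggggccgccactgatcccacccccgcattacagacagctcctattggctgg
Cycs, chr6:50566570-50566819, minus strand: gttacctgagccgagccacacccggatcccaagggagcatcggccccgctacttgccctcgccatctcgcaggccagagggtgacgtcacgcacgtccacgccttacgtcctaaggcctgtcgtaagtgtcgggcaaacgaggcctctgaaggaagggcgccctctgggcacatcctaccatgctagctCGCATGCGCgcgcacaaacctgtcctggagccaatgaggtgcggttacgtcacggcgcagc
The capitals in Cox6b1 are a match, on the opposite strand, to the core CCGGAAG of the ETS family, to which the respiratory gene regulator GABPA belongs, and start 28 bases before the transcription start. Those in Cycs are a match on the opposite strand to the NRF1 core GCGCANGCG and start 61 bases before it. No match to these cores or to AAGATGGCG, a core of YY1, was found in the Cox6b2 window.

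Promoter windows of 300 bases (250 before and 50 after the start) were given for 74 members and for 27025 genes in all, and were searched on both strands. These 74 are not the 74 listed at both stages, as they include members listed at the 4-cell stage only, such as Ndufa5 and Ndufs5. The NRF1 core was present in at least 1 window of 23 members (31.1%) and of 7.03% of all genes. The ETS core was present for 17 members (23%) and 9.93% of all genes, and the YY1 core for 7 members (9.46%) and 1.64% of all genes. Fewer different symbols were recorded with the NRF1 and the ETS core than these counts. The difference is unexplained, so both counts may be too high. Members with the NRF1 core were found in complex I (such as Ndufs5 and Ndufa11), II (Sdha and Sdhd), III (Uqcrc1 and Uqcr11), IV (Cox6a1) and V (such as Atp5g2 and Atp5g3). These matches describe the windows and were not tested, and the motifs were not required to be apart from each other.

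At both stages the transcripts of complexes IV, V and I made up most of the summed level of the subunits of complexes I to V, on a scale of counts per transcript length at the 2-cell stage and of FPKM at the 4-cell stage. In GFP 2-cell embryos the median shares were 21.7% for complex I, 1.36% for complex II, 7.81% for complex III, 37.1% for complex IV and 30.9% for complex V. Over the same genes in GFP 4-cell embryos they were 22.1% for complex I, 1.39% for complex II, 11.1% for complex III, 30.6% for complex IV and 34.3% for complex V. Complex II, which has 4 subunits, had the lowest median share in all 7 groups. With the shortest protein-coding transcript as the length of each gene, complex V (33.1%) was above complex IV (27.4%) in GFP 2-cell embryos too, so the order of complexes IV and V at the 2-cell stage depends on the lengths.

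Across the 8427 genes listed in all 3 tables and with a length, the 74 members together took a median of 0.909% of the per-length signal in the 11 GFP 2-cell embryos (0.678 to 1.33%) and of 2.3% in the 28 GFP 4-cell embryos (1.71 to 3.95%). The ranges of the embryos do not overlap. The median member stood at percentile 62.7 of these genes in GFP 2-cell embryos and at percentile 90.2 in GFP 4-cell embryos. The tables were made separately, so no test was run between stages, and values are parts per 10 to the power 6 (ppm) of the summed per-length level of the shared genes. The injected groups gave values close by at each stage: a median of 0.905% with low protein sperm RNA, 0.886% with control sperm RNA, 1% with tRF-GlyGCC and 1.03% with tRF-GluCTC at the 2-cell stage, and 2.27% with antisense at the 4-cell stage.

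The median ratio of the GFP 4-cell over the GFP 2-cell level was 3.05 for the 74 members and 0.613 for the 8420 genes with a ratio. The 2-cell tables leave out genes of low count, so genes low there and high at the 4-cell stage can be missing from both sets. Of the members, 56 were at 2-fold or more, against 17.8% of all genes. By complex, the median ratio was 2.77 for the 28 members of complex I, 3.68 for the 4 of complex II, 3.76 for the 8 of complex III, 2.54 for the 13 of complex IV and 5.88 for the 15 of complex V. The 5 assembly factors and related proteins with a ratio had a median of 0.549. For 21 members every GFP 4-cell embryo was above every GFP 2-cell embryo, against 3.42% of all genes. For 1 member, the assembly factor Ndufaf4, every GFP 4-cell embryo was below, against 13.8% of all genes.

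**Figure D1:**
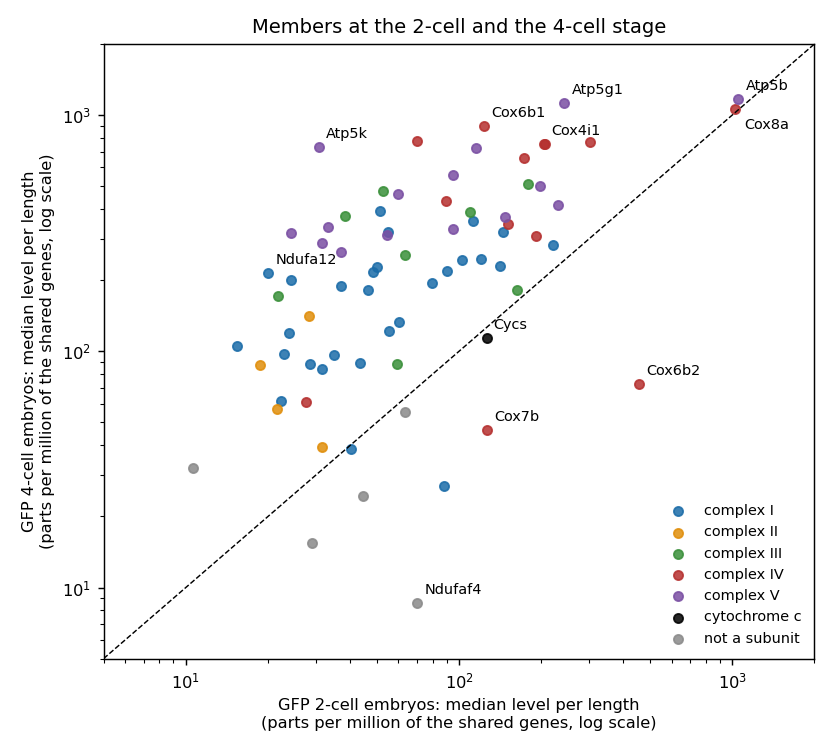
Each point is 1 of the 74 members listed at both stages, placed by its median level per transcript length in the 11 GFP 2-cell embryos (horizontal, log scale) and the 28 GFP 4-cell embryos (vertical, log scale), in ppm of the 8427 shared genes, and coloured by complex. The dashed line marks equal levels: most points lie above it, while Cox6b2 and Ndufaf4 lie furthest below it.

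Short genes differed between the tables apart from the members, so the ratio was also taken by transcript length. Among genes under 1000 bases the median ratio was 4.14 for the 42 members and 1.63 for all 535 genes. Among genes from 1000 bases it was 2.47 for the 32 members and 0.58 for all 7885 genes. With the shortest protein-coding transcript of each gene as its length, the medians were 6.04 for the members and 0.728 for all genes, and 61 members were at 2-fold or more, against 29.8% of all genes. By complex these medians were 5.09 for complex I, 4.45 for complex II, 6.83 for complex III, 6.91 for complex IV and 12.9 for complex V, so complex IV was the lowest of the 5 with median lengths and not with the shortest. Which part of the ratio comes from the making of the tables was not tested.

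Several of the largest ratios belonged to subunits of complex V. Atp5k, subunit e of the ATP synthase membrane part, had 359 FPKM in the median GFP 4-cell embryo (139 to 1616), and its per-length ratio was 23.8. Atp5g2, a gene for subunit c of the rotor ring, had a ratio of 13.1, and Atp5d, the delta subunit of F1, had 10.1. Ndufa12, an accessory subunit of complex I, had 20 ppm in the median GFP 2-cell embryo (0 to 62.9) and 215 in the median GFP 4-cell embryo (73.8 to 413), without overlap. Atp5e, the epsilon subunit of the F1 stalk, had a ratio of 9.12, with medians of 31.5 ppm in GFP 2-cell embryos and 287 in GFP 4-cell embryos, again without overlap. With the shortest transcript lengths the ratios were 49.9 for Atp5k, 24.8 for Atp5g2, 26.6 for Atp5d, 33.7 for Ndufa12 and 28.7 for Atp5e.

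Other members had similar levels at both stages on this scale. Atp5b, the catalytic beta subunit of F1, had 1052 ppm in the median GFP 2-cell embryo (697 to 1538) and 1175 in the median GFP 4-cell embryo (750 to 1994). Cox8a, a small structural subunit of complex IV, had 1024 (557 to 1737) and 1060 (486 to 2742) in the same groups. Both were the leading members at the 2-cell stage, and their groups overlapped across the stages. Cycs had 49.8 to 155 ppm in GFP 2-cell embryos and 30.3 to 254 in GFP 4-cell embryos. With the shortest transcript lengths the ratios of these 3 genes became 3.32, 3.07 and 2.85, since their own lengths are the same under both choices while those of many other genes are shorter, so their similar levels depend on the lengths used.

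Members below their 2-cell level were few. Ndufaf4 had 70.3 ppm in the median GFP 2-cell embryo (31.9 to 220) and 8.61 in the median GFP 4-cell embryo (1.89 to 23.7), a ratio of 0.122, or 0.0703 with the shortest lengths. Ndufa11, an accessory subunit of complex I, had medians of 88.3 and 26.9 in the same groups, with a ratio of 0.305, or 0.818 with the shortest lengths. Cox7b, a small subunit of complex IV, had 38.8 to 317 and 14.5 to 134 ppm, with a ratio of 0.368, which became 1.16 with the shortest lengths. Ndufaf4 acts in the building of complex I and is not part of the finished enzyme.

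The pair Cox6b1 and Cox6b2 had opposite orders at the 2 stages. The Cox6b subunit lies on the intermembrane face of complex IV between its monomers. Cox6b1 is the common form, and Cox6b2 is known in mammals as the form of testis and sperm. In GFP 2-cell embryos Cox6b2 had 456 ppm (246 to 728) and Cox6b1 had 123 (103 to 264). In GFP 4-cell embryos Cox6b2 had 72.9 (22.7 to 292) and Cox6b1 had 896 (622 to 1709). Cox6b1 was thus above its 2-cell range in every GFP 4-cell embryo, while the Cox6b2 ranges of the stages overlapped between 246 and 292.

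Within single embryos, Cox6b2 as a share of both genes per length needs no scaling between tables. At the 2-cell stage its median was 69.3% with low protein sperm RNA (15.1 to 93.8%), 70.6% with control sperm RNA (35.1 to 92.6%), 72.7% with tRF-GlyGCC (51.6 to 93.3%), 83.7% with tRF-GluCTC (73.4 to 95.3%) and 77.3% with GFP (66.6 to 87.6%). At the 4-cell stage it was 10.9% with antisense (2.01 to 26.8%) and 7.97% with GFP (2.4 to 21.8%). Cox6b2 made up more than 50% in 124 of 131 2-cell embryos and in 0 of 55 4-cell embryos. A single 2-cell embryo, of the low protein sperm RNA group, lay within the 4-cell range. Without any correction for length, the median share of Cox6b2 in the counts was 75.3% in GFP 2-cell embryos, and the lengths of the genes are close (553 bases for Cox6b2 and 618 for Cox6b1).

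**Figure D2:**
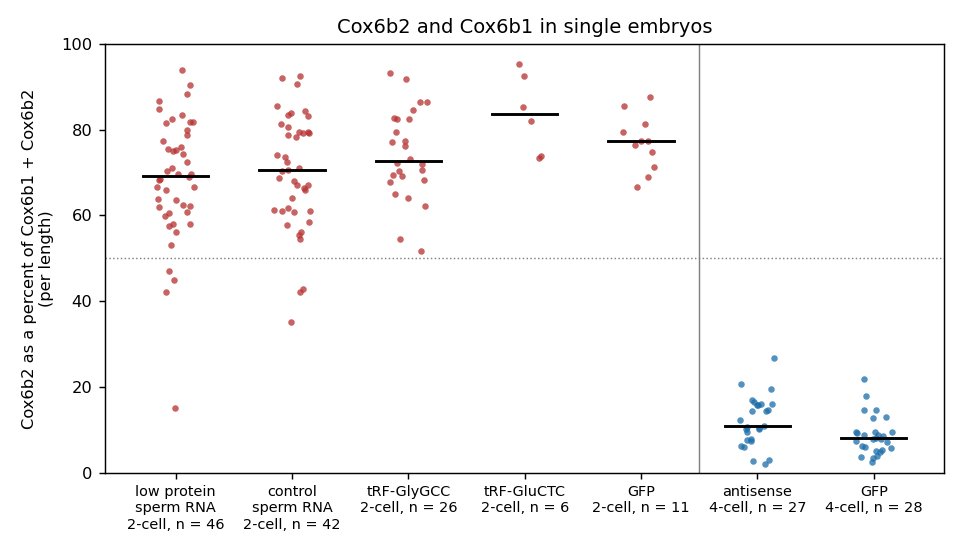
Each point is 1 embryo and shows Cox6b2 as a percent of the summed per-length level of Cox6b1 and Cox6b2. The 5 groups left of the line are 2-cell embryos and the 2 right of it 4-cell embryos, black bars are medians and the dotted line is 50%: medians lie between 69.3 and 83.7% at the 2-cell stage and at 7.97 and 10.9% at the 4-cell stage.

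The 10 sperm transcript markers give a measure of other testis-type transcripts beside Cox6b2. The summed level of the 2 listed at the 2-cell stage, Odf2 and Ldhc, had group medians between 262 and 400 CPM. At the 4-cell stage all 10 together had 28.2 FPKM with antisense and 25.8 FPKM with GFP. The unit and the set of genes differ between the stages, so these sums give no change between them. The part of sperm RNA in the Cox6b2 level was not tested.

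The other tissue-specific paralogues of complex IV were listed at the 4-cell stage only and were low there. Cox8b, the form of heart and muscle, and Ndufa4l2 were listed at 0 in all 27 antisense and all 28 GFP embryos. Cox6a2, another heart and muscle form, was listed at 0 in 24 of 27 antisense and 22 of 28 GFP embryos, and Cox8c, known from testis, in 15 of 27 and 18 of 28. Cox4i2, the form of lung, had a median of 3.26 FPKM with antisense and 4.12 FPKM with GFP, where its partner Cox4i1 had 383 and 384 FPKM. Cox7a1, the heart and muscle form, had 8.24 FPKM with antisense and 11.2 FPKM with GFP, where Cox7a2 had 176 and 174 FPKM. The testis form Cox7b2 was low too, with 2.95 FPKM in the median antisense embryo (0 to 23) and 12.9 FPKM in the median GFP embryo (0 to 41.2). Its partner Cox7b had 27 FPKM with antisense and 24.5 FPKM with GFP. As a share of this low pair, Cox7b2 had a median of 12% with antisense and 32.9% with GFP.

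Subunit c of the ATP synthase rotor is encoded by 3 genes whose mature proteins are the same. Atp5g1 held a median of 76.8% of their per-length level in GFP 2-cell embryos (42.5 to 87.5%) and 65.3% in GFP 4-cell embryos (54.3 to 77.8%). Atp5g2 held 7.12% and 18%, and Atp5g3 12.2% and 16.8%, in the same order of stages. Atp5g1 has transcripts of very unequal length, and with the shortest its 2-cell share was 92%. Genes of this kind have processed pseudogenes in the mouse, and how the authors' counting shared reads between near-identical copies is not given in the sources used here.

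Summed over all members, the level varied between embryos of a group by a CV of 18.9 to 23.5% at the 2-cell stage, and by 28.5% with antisense and 39.8% with GFP at the 4-cell stage. Without the highest embryo of each group the 4-cell values were 21.4% with antisense and 22.9% with GFP. With FPKM rescaled to 1 sum per embryo they were 17.4% with antisense and 19.1% with GFP over all embryos, so a larger spread at the 4-cell stage is not shown. With low protein sperm RNA the sum of the 74 members was 2261 to 5687 CPM with a median of 4245, and with control sperm RNA it was 2518 to 5737 with a median of 4192. With tRF-GlyGCC it was 2427 to 6805 with a median of 4841, with tRF-GluCTC 3713 to 6512 with a median of 4842, and with GFP 3138 to 6324 with a median of 3856. The ranges of all 5 groups overlap over most of their length. At the 4-cell stage the sum of the 94 members was 7332 to 23988 FPKM with antisense, with a median of 12162, and 6804 to 37031 FPKM with GFP, with a median of 12653.

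The highest GFP 4-cell embryo, replicate 6 of batch P, stood apart from the next at 17953 FPKM. In units of 1000 FPKM, its sum over all features was 1012, where the group median was 586. Rescaled to 1 M per embryo, its members took 36575, still the highest of the GFP group, whose median was 21720. The highest antisense embryo, replicate 9 of batch Q, had the second fewest features at 1 FPKM or more among the antisense embryos (8687).

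**Figure D3:**
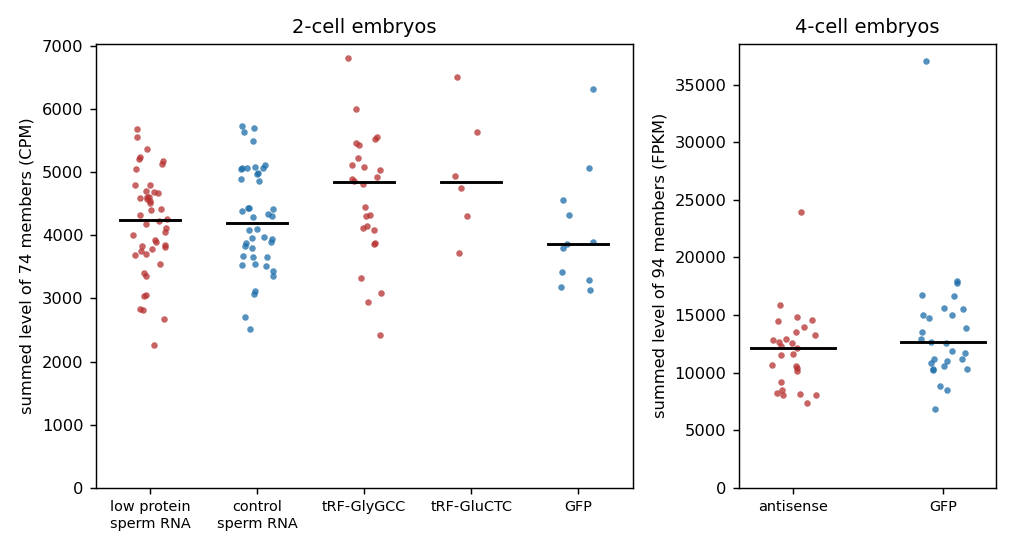
Each point is the summed level of the listed members in 1 embryo, in CPM for the 74 members of the 2-cell tables (left) and in FPKM for the 94 members of the 4-cell table (right), with black bars at the medians. The groups overlap in both panels, and 1 GFP 4-cell embryo at 37031 FPKM lies above all others.

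The single members varied more than their sum. Across the 42 control sperm RNA embryos the median CV was 58.8% for the 74 members and 62.7% for all 8735 genes. The steadiest were Atp5b at 26.9%, Atp5g1 at 31.9% and Cox6a1, a common subunit of complex IV, at 36.6%. The most variable were Cyc1, the cytochrome c1 of complex III, at 102%, Ndufb7 at 102%, Cox7a2l at 94.4%, Atp5l at 91.8% and Uqcr11 at 90.8%. These last 5 had mean levels between 6.48 and 16.4 CPM, where Atp5b had 840 CPM, and the part of counting error in their CV was not tested.

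Complex sums moved together between embryos of a group to different degrees at the 2 stages, after removal of the batch means. These values are a description only, as all complex sums of an embryo come from 1 library and share its depth. Among 41 control sperm RNA embryos the Pearson correlation of the log2 sums was 0.81 between complexes III and V and 0.70 between complexes I and IV, but 0.18 between complexes IV and V, and 0.04 for the last pair without the 2 embryos farthest from the median. The 10 pairs of complexes had a median of 0.44. Among 46 low protein sperm RNA embryos the median was 0.48 and complexes III and V again had 0.82. Spearman values of these pairs of complexes III and V were 0.84 with control sperm RNA and 0.58 with low protein sperm RNA. Complex II, the only one that is also an enzyme of the TCA cycle, had 0.03 with complex IV in the low protein group and 0.08 in the control group.

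At the 4-cell stage the 10 pairs had a median of 0.88 among 27 antisense embryos and 0.88 among 28 GFP embryos. FPKM sums differ between embryos there, which all complexes share. Rescaled to 1 sum per embryo, the medians were 0.70 with antisense and 0.62 with GFP, and complexes IV and V had 0.79 and 0.67. The summed members also followed the summed cytosolic ribosomal proteins in most groups. At the 2-cell stage the correlation was 0.85 with low protein sperm RNA, 0.78 with control sperm RNA, 0.83 with tRF-GlyGCC and 0.87 with GFP. Among the 6 tRF-GluCTC embryos it was -0.32. At the 4-cell stage it was 0.82 with antisense and 0.90 with GFP, on FPKM that were not rescaled, whose sums differ between embryos. Against the total count, the members had -0.42 with low protein sperm RNA and 0.04 with control sperm RNA, and what depth adds to these values was not tested. In the correlation of each member with the sum of the others, the median member had 0.64 with antisense and 0.61 with GFP at the 4-cell stage. Atp5a1, the alpha subunit of F1, had -0.19 with antisense and -0.46 with GFP, and Ndufs1, the large iron-sulfur subunit of complex I, had -0.12 and -0.45. Atp5b had -0.49 with antisense and 0.31 with GFP, so the negative members differed between the groups. At the 2-cell stage Ndufaf4 had -0.52 with low protein sperm RNA, -0.28 with control sperm RNA and -0.62 with tRF-GlyGCC, where the median member had 0.48, 0.42 and 0.57.

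The first comparison of injected RNAs set embryos with low protein sperm RNA against embryos with control sperm RNA. By edgeR's quasi-likelihood test with Benjamini-Hochberg adjustment over all genes, 0 of 74 members passed the threshold of 0.05, against 0.0917% of 8721 genes, and DESeq2 called 0 as well. At an unadjusted p under 0.05 there were 0 members by edgeR, against 3.99% of all genes, and 1 member by DESeq2. Of the members, 31 were higher and 43 lower with low protein sperm RNA, where 53.9% of all genes were higher, and the median log2 fold change was -0.03 for the members and 0.02 for all genes. CPM are shares of the counts of a whole embryo, so they give no amount of RNA, and the cells of an embryo were not measured apart.

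The members of smallest p in this comparison did not pass the test. Ndufa4, now counted as a subunit of complex IV, had 9.06 to 110 CPM with low protein sperm RNA (median 29.3) and 9.82 to 149 CPM with control sperm RNA (median 32.9). Its log2 fold change was -0.41 with an SE of 0.21 (adjusted p = 1, p = 0.0582), and it was lower in 4 of 5 batches that could be fitted alone. Atp5g2 had a log2 fold change of -0.45 with an SE of 0.27, and Ndufv1, a core flavoprotein subunit of complex I, of -0.51 with an SE of 0.31. Among the higher ones, Uqcrh, the hinge protein of complex III, had 0.28 with an SE of 0.18, Ndufaf4 0.30 with an SE of 0.20 and the complex I subunit Ndufa10 0.39 with an SE of 0.27. The ranges of both groups overlapped for each of these 6 genes. Cox6b2 averaged 65.9 ± 31.4 CPM with low protein sperm RNA and 81.5 ± 42 CPM with control sperm RNA (SD, n = 46 and 42), a log2 fold change of -0.26 with an SE of 0.16.

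By complex, the median log2 fold change with low protein sperm RNA was 0.00 for complex I, 0.10 for complex II, -0.13 for complex III, -0.10 for complex IV and -0.01 for complex V. Complex III had 6 of 8 members lower and complex IV 10 of 13. Within the batches, the median over the members was -0.13 in A, -0.27 in B, 0.00 in C, 0.02 in E and 0.00 in F, so the sign did not hold. Batch D held 1 control embryo and could not be fitted alone.

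The second set of comparisons asked what a single synthetic tRF does. With tRF-GlyGCC, 58 of 74 members were above GFP, where 55% of all 8804 genes were, and the median log2 fold change was 0.20 for the members and 0.04 for all genes. By edgeR, 0 members passed the threshold, against 0% of all genes, and DESeq2 called 0. At an unadjusted p under 0.05 there was 1 member by edgeR, against 3.23% of all genes, and 2 by DESeq2. The median was 0.29 within batch G (10 tRF-GlyGCC and 6 GFP embryos), where 60 members were higher, and 0.07 within batch H (16 and 5), where 42 were.

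The member with p under 0.05 was Cox5a, a nuclear subunit of complex IV. It had 20.9 to 201 CPM with tRF-GlyGCC (median 108) and 31 to 138 CPM with GFP (median 74.6), with a log2 fold change of 0.54 and an SE of 0.27 (edgeR p = 0.048, adjusted p = 1). Its fold change was 0.82 within batch G and 0.28 within batch H. Atp5j2, subunit f of complex V, had 0.63 with an SE of 0.33, and Cycs 0.52 with an SE of 0.27. The 3 lower members of smallest p were Atp5a1 at -0.34, Ndufs1 at -0.63 and Ndufa1 at -0.38, with SE of 0.31, 0.58 and 0.40. The groups overlapped for each of these genes, and none of the lower 3 had a p under 0.2.

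With tRF-GluCTC, which was injected into 6 embryos, all in batch H, 47 of 74 members were above GFP, where 49.6% of all genes were, and the median log2 fold change was 0.16 for the members and -0.01 for all genes. Within batch H alone it was 0.05. By edgeR 0 members passed the threshold, against 0% of all genes, and DESeq2 called 0. At an unadjusted p under 0.05 there were 5 members by edgeR, against 3.46% of all genes, and 7 by DESeq2. With no batch term there were 11, and within batch H there were 2, Cycs and Ndufs8. The fifth of these, besides the 4 described next, was Ndufb8, an accessory subunit of complex I, with 1.02 and an SE of 0.49.

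Cycs had the smallest p of these. It had 108 to 908 CPM with tRF-GluCTC (median 192) and 58.3 to 206 CPM with GFP (median 152), and its log2 fold change was 1.21 with an SE of 0.38 (edgeR p = 0.00261, adjusted p = 1), or 1.07 within batch H. Ndufs8, a core iron-sulfur subunit of complex I, had 33.1 to 151 CPM with tRF-GluCTC (median 102) and 14.3 to 70.4 CPM with GFP (median 44.8), a log2 fold change of 1.37 with an SE of 0.53. Cox8a had 273 to 755 CPM with tRF-GluCTC (median 312) and 117 to 391 CPM with GFP (median 230), a log2 fold change of 0.68 with an SE of 0.30, or 0.51 within batch H (edgeR p = 0.153). Ndufaf7, a methyltransferase that acts in complex I assembly, had 7.38 to 22.8 CPM with tRF-GluCTC (median 12) and 1.55 to 79.2 CPM with GFP (median 45.3), a log2 fold change of -1.30 with an SE of 0.61, or -1.36 within batch H (edgeR p = 0.0952). Uqcrc1, a core protein of complex III, had -0.99 with an SE of 0.72. The groups overlapped for all of these genes.

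Between the tRFs, 39 of 74 members were higher with tRF-GlyGCC than with tRF-GluCTC, where 54.4% of all genes were, and the median log2 fold change was 0.11 for the members and 0.05 for all genes. By edgeR 0 members passed the threshold, against 0% of all genes, and DESeq2 called 0. At an unadjusted p under 0.05 there were 6 members by edgeR, against 2.2% of all genes, and 6 by DESeq2. These 6 were Ndufaf7 and Atp5j2, which were higher with tRF-GlyGCC, and Ndufa4, Ndufb8, Cycs and Cox6b2, which were lower. Ndufa4 had 14.1 to 121 CPM with tRF-GlyGCC (median 53) and 40.4 to 307 CPM with tRF-GluCTC (median 133), a log2 fold change of -1.01 with an SE of 0.42 (edgeR p = 0.0215, adjusted p = 1). Ndufb8 had -0.91 with an SE of 0.41, Cox6b2 -0.54 with an SE of 0.26, and Ndufaf7 1.44 with an SE of 0.57. Atp5j2 had 0.90 with an SE of 0.44 and Atp5o, the oligomycin sensitivity protein of complex V, 0.78 with an SE of 0.44. The comparisons with GFP share the GFP embryos, and those with tRF-GluCTC share its 6 embryos.

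**Figure D4:**
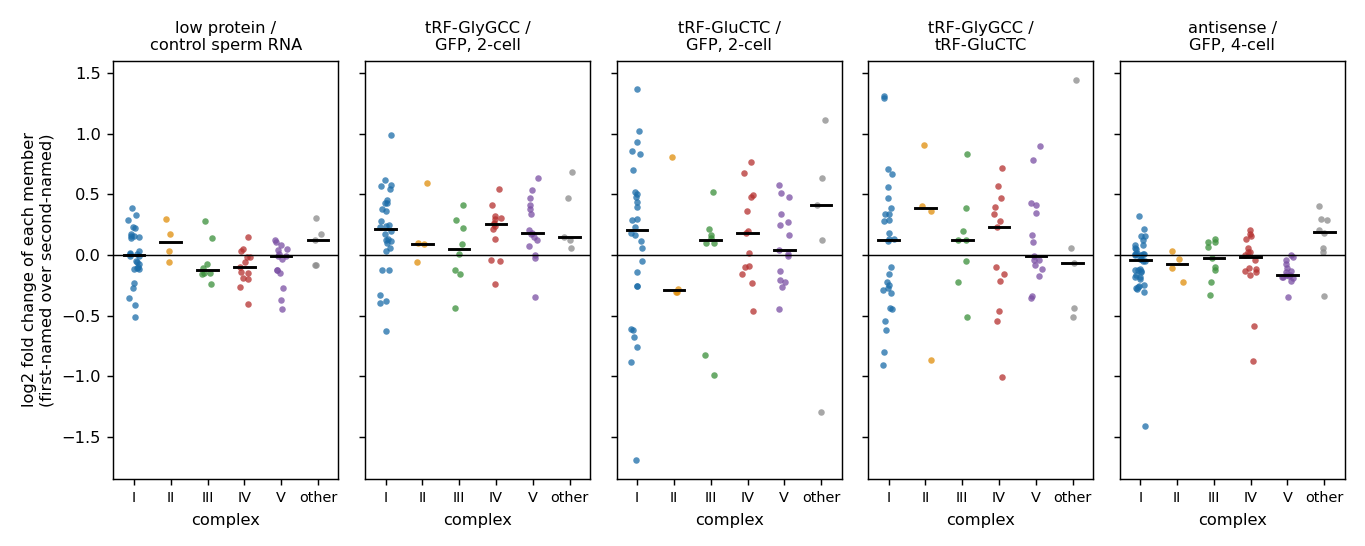
Each point is the log2 fold change of 1 tested member, by complex, in the 5 comparisons, with the first-named group over the second; black bars are medians, and other stands for the assembly factors and related proteins. Points spread most in the comparisons with the 6 tRF-GluCTC embryos, and all 15 members of complex V lie below 0 with antisense, or 13 of 15 with FPKM rescaled to 1 sum per embryo.

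At the 4-cell stage antisense embryos were set against GFP embryos. By limma on log2(FPKM + 1), 89 members passed the filter of a mean of at least 5 FPKM, and 0 of them passed the threshold, against 0.0276% of 7237 features. The 5 that did not pass the filter were Cox6a2, Cox8b, Cox8c, Ndufa4l2 and Ndufaf3. At an unadjusted p under 0.05 there were 2 members, against 10.9% of all features. This count ran from 1 to 15 over the alternatives, with 15 for no batch term, 13 without batch N and 8 without the 2 antisense embryos of fewest features. Of the members tested, 36 were higher with antisense, where 52.7% of all features were, and the median was -0.04 for the members and 0.01 for all features.

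All 15 members of complex V had a negative log2 fold change with antisense, with a median of -0.16, although 0 had a p under 0.05 by limma. The complexes I, II, III and IV had medians of -0.04, -0.07, -0.02 and -0.02, and of the 8 assembly factors and related proteins 7 were higher, with a median of 0.19. Without batch N the split of these 8 was 4 higher and 4 lower, with a median of 0.03, and with no batch term the median was 0.03. The direction of complex V did not hold within batches: the median of its 15 members was -0.35 in J, -0.10 in K, 0.22 in L, -0.14 in M, 0.59 in N, -0.34 in P and -0.70 in Q. Without batch Q it was -0.02, with 9 of 15 members lower, and without batch N it was -0.24, with 14 of 15 lower and 6 with a p under 0.05. With no batch term it was -0.24, with 15 of 15 lower and 6 with a p under 0.05. With FPKM rescaled to 1 sum per embryo, 13 of 15 were lower, and without the 2 antisense embryos of fewest features, 14 of 15.

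The same spread held for all members. Their median was -0.47 in batch J (3 antisense and 3 GFP embryos), -0.04 in K (4 and 4), 0.30 in L (4 and 2), -0.15 in M (5 and 4), 0.56 in N (5 and 2), -0.24 in P (2 and 4) and -0.35 in Q (4 and 5). The median was thus below 0 in 5 batches and above 0 in 2. Batch R held GFP embryos only.

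**Figure D5:**
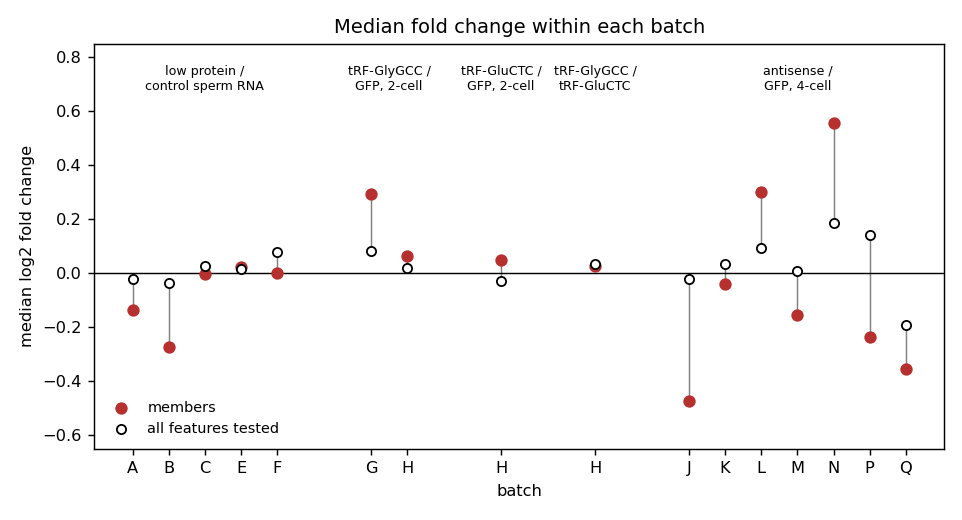
Filled points are the median log2 fold change of the tested members, and open points that of all features tested, in fits of each batch alone, for the batches with at least 2 embryos in both groups. In the antisense comparison the medians of the members run from -0.47 in batch J to 0.56 in batch N.

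The 2 members with p under 0.05 at the 4-cell stage were Ndufs5 and Atp5sl. Ndufs5, an accessory subunit of complex I facing the intermembrane space, had 0.0022 to 120 FPKM with antisense (median 41.2) and 0.782 to 308 FPKM with GFP (median 64.7). Its log2 fold change was -1.41 with an SE of 0.58 (limma p = 0.0179, adjusted p = 0.32), and it was below 0 in 7 of 7 batches that could be fitted alone. Within these batches it ran from -3.31 in L to -0.28 in K, and none had a limma p under 0.05. Atp5sl, which is not a subunit of complex V despite its name, had 4.62 to 21.8 FPKM with antisense (median 12.5) and 7.07 to 38.6 FPKM with GFP (median 16), with a log2 fold change of -0.34 and an SE of 0.15. Atp5e had 26.9 to 234 FPKM with antisense (median 96.5) and 62 to 294 FPKM with GFP (median 145), with -0.35 and an SE of 0.18. The higher members of smallest p were the complex I assembly factors Ndufaf1 at 0.40 and Ndufaf6 at 0.29, and the acyl carrier protein Ndufab1 at 0.32, with SE of 0.22, 0.21 and 0.22. The groups overlapped for each of these 6 genes. For Ndufab1 the group means were 67.2 ± 32.7 FPKM with antisense and 67.7 ± 45.6 FPKM with GFP (SD), so its positive sign is not seen in the means of the FPKM. Its fold change stayed above 0 under the alternatives run, with no batch term among them. In fits of single batches it was below 0 in J and M only.

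The authors' deposited table gives its own test of the 4-cell groups. Of 86 members with a test there, 6 had a p under 0.05, where 11.4% of all 6465 genes with a test did, and 0 were marked significant. In the authors' deposited table all 6 were lower in the injected group: Atp5g3 had 154 FPKM in the injected group and 224 FPKM in the control group (q-value 0.256), Cox7b2 6.41 and 16.5, Atp5g2 145 and 201, Atp5sl 14.4 and 20.8, Atp5h 353 and 467, and Uqcrb 224 and 304, in the same order. Of these, Atp5g2, Atp5g3 and Atp5h belong to complex V. Most other members with a test were lower in the injected group there too, so this direction does not set the 6 apart. Ndufs5, with a p under 0.05 by limma above, had 14.7 FPKM in the injected and 27.7 FPKM in the control group there. The authors' test gave it a p of 0.113. Its means over single embryos were higher, at 43.1 FPKM with antisense and 82.9 FPKM with GFP.

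Lists of genes that work with the subunits were counted in the same fits. Of 42 assembly factors, 27 were tested at the 2-cell stage and 30 at the 4-cell stage; of 20 genes of the TCA cycle and pyruvate dehydrogenase, 19 at both; and of 20 regulators of mitochondrial biogenesis, 13 with the sperm RNAs, 14 with the tRFs and 12 at the 4-cell stage. By edgeR or limma, 0 genes of these lists passed the threshold in any of the 5 comparisons. With low protein sperm RNA the medians were -0.04, 0.05 and -0.02 for the 3 lists in this order. Idh3g, a subunit of isocitrate dehydrogenase, had the smallest p there: it averaged 92.4 ± 62.1 CPM with low protein sperm RNA and 63.9 ± 33.2 CPM with control sperm RNA (SD), a log2 fold change of 0.59 with an SE of 0.20 (edgeR adjusted p = 0.755). The complex IV assembly factor Coa3 had -0.61 with an SE of 0.30.

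With tRF-GlyGCC the medians against GFP were 0.22, 0.30 and 0.14 for the assembly factors, the TCA cycle list and the regulators, where all genes had 0.04. Malate dehydrogenase Mdh2 had 0.62 with an SE of 0.30, and Tfb2m, a transcription factor of mitochondrial DNA, 0.55 with an SE of 0.26. With tRF-GluCTC against GFP the medians were 0.08, 0.24 and -0.02, and Mdh2 had 0.89 with an SE of 0.43. Cox11, a copper chaperone for complex IV, had 1.69 with an SE of 0.79. Between the tRFs, none of the 3 lists had a gene with an unadjusted p under 0.05.

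At the 4-cell stage, 10 of 12 regulators were higher with antisense, with a median of 0.12. Tfam, which packages and transcribes mitochondrial DNA, averaged 11.3 ± 3.23 FPKM with antisense and 8.54 ± 3.61 FPKM with GFP (SD), a log2 fold change of 0.52 with an SE of 0.16 (limma p = 0.00162, adjusted p = 0.18). The complex IV assembly factors Cox14 and Coa6 had 0.47 and 0.52 with SE of 0.22 and 0.24. Of the TCA cycle list, 14 of 19 genes were lower with antisense, with a median of -0.10 and 0 with a p under 0.05 by limma.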

How the data were processed

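Per the labels' protocols, the RNA of each embryo was made into a Nextera library by a single-cell method. The 2-cell tables hold expected counts per gene, deposited by the authors with no normalization, in which a count of 0 is shown as 0.1. The 4-cell table holds FPKM per gene computed by the authors, in which 0 is shown as 0.001. Another file is the authors' own 4-cell comparison, with group FPKM, p-values and q-values, as deposited. Bowtie and mm10 are named in the submitters' processing notes, while their versions and the counting tool are not given in the sources used. All columns of sample values were used (0 were left out), and no pair of columns was identical.

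Rounded to integers, the expected counts went into edgeR 4.0.16 in R 4.3.3 (TMM scaling, filterByExpr, quasi-likelihood test, batch as an additive term), with DESeq2 1.42.0 as an alternative. For the 4-cell table, limma 3.58.1 was run with the same batch term on features averaging 5 FPKM or more, after adding a pseudocount of 1 and taking log2. The pseudocount makes fold changes of low genes too small. P-values were Benjamini-Hochberg adjusted over all features, with a threshold of 0.05. The scripts were tested on simulated data. Group levels are CPM or FPKM of single embryos. For levels per length, each count was divided by the median length of the gene's GENCODE vM21 transcripts, with the shortest protein-coding transcript as an alternative. Embryos were numbered in accession order.

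Genes were named by rule: in each comparison the 3 higher and the 3 lower tested members of smallest p, the members of highest and lowest level, the tissue-specific paralogues and subunit c genes, the most and least variable members, and the 2 genes of smallest p in each pathway list. Some genes that this rule names are not reported here. A few more were named after their values were seen: those at the ends of the stage ratio, those with an unadjusted p under 0.05, and those with negative correlations. The members and lists were chosen with earlier results of these data known. Title numbers shared between groups were not used to pair embryos in the main fits. Correlations of the deviations were over 0.1 in 7 of 12 pairs of the sperm RNA table and 3 of 19 of the 4-cell table. In the tRF table they were over 0.1 in 5 of 6 pairs for tRF-GlyGCC and GFP (-0.09 to 0.52). For tRF-GluCTC and GFP there were 2 pairs only, both at 0.57. Most pairs of the tRF table were thus over 0.1, and the replicate block described below uses these numbers.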

Additional observations from a re-analysis of the deposited data

Results flagged for a closer look

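Among the 6 tRF-GluCTC embryos, 26 values were compared with the others of their group, and 2 had an embryo far from the rest, where chance gives about 1 in 20. Cox8a had 754.922 CPM in replicate 5, where the other embryos had 273 to 443 CPM. This embryo also had the highest summed level of the members in its group, 6512 CPM, and the fewest genes detected, 7620. Atp5g2 had 27.6562 CPM in replicate 2, where the others had 0 to 9.77 CPM.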

How the results depend on the processing

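In all 5 comparisons, 0 members passed the threshold under every alternative run. The 282 values of named members under alternatives kept their direction and their side of the threshold. These values leave out the single-batch fits of the sperm RNA and 4-cell tables, in which several named members changed sign. With low protein sperm RNA, Ndufa10 had -0.18 in A, -0.77 in B and -0.06 in E, but 1.55 in C and 2.01 in F. The median log2 fold change of the members ran from -0.08 to -0.01 with low protein against control sperm RNA, from 0.07 to 0.29 with tRF-GlyGCC against GFP, from 0.05 to 0.19 with tRF-GluCTC against GFP, from 0.03 to 0.17 between the tRFs, and from -0.17 to -0.01 with antisense. Only the tRF ranges include fits of single batches, since leaving out 1 of their 2 batches leaves the other alone. In single batches the median ran more widely, from -0.27 (B) to 0.02 (E) with low protein sperm RNA and from -0.47 (J) to 0.56 (N) with antisense. With the replicate block, which uses the numbers in the titles, the medians were -0.05 with low protein sperm RNA, 0.24 with tRF-GlyGCC and 0.19 with tRF-GluCTC against GFP, and -0.08 with antisense, and it changed no call of a member. Among all genes, the 8 calls with low protein sperm RNA became 18 with DESeq2, 16 with no batch term, and 0 with the replicate block, without the 2 control embryos of lowest total, or without batch E or F; the cause was not tested. Of 35 complex shares, 2 moved beyond the spread between embryos, complexes I and III in GFP 4-cell embryos, when only the members listed in all 3 tables were used. The rescaled FPKM, the CV without the highest 4-cell embryos, the split by length and the shortest transcript lengths were chosen after seeing the data. Leaving out single embryos in turn was replaced by leaving out batches, since groups hold 6 or more embryos. The part of counting error in the spread of low members was not tested, and the 4-cell depth is unknown.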
